A study of Mus musculus with 17 samples.

Results

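Cardiomyocytes carry their contractile force from one sarcomere to the next through the Z-disc and from one cell to the next through the intercalated disc. Both structures hold actin-binding scaffolds, proteins built of LIM domains and ankyrin repeat proteins that bind titin, and several of these proteins also move to the nucleus and bind transcription factors. Pressure overload of the left ventricle is a standard way to place this machinery under added mechanical load.

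The genes described here are 10 such genes of 21798 in the deposited table, picked by symbol: the Xin repeat genes Xirp1 and Xirp2, the anchoring and cross-linking genes Nrap and Flnc, the muscle ankyrin repeat genes Ankrd1 and Ankrd2, and the LIM domain genes Csrp3, Fhl1, Fhl2 and Lmcd1. All 10 were in the table and all 10 passed the filter on low values. Ankrd2 passed through the constricted hearts, since 8 of 9 TAC libraries but 1 of 8 Sham libraries reached the filter of 0.5 CPM (reads of a gene per 1000000 reads counted). The rule that picked them used the gene symbol and no measured value, but the genes were listed with earlier results of these data known.

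RNA was sequenced from the apex of the left ventricle of male C57Bl/6 J mice, 7 to 8 weeks old at surgery. Samples were taken 3 weeks after transverse aortic constriction (TAC), which narrows the aortic arch, or after Sham surgery. From 1 week after surgery the mice were given 29P, an oral RGD mimetic specific for αvβ3 integrin, at 50 μg/kg, or saline vehicle (Veh), by 6 gavages at least 48 h apart over 2 weeks. Of 17 libraries in all, 5 were from Sham Veh mice, 3 from Sham 29P, 3 from TAC Veh and 6 from TAC 29P. The study had left out another TAC Veh library because it clustered with Sham mice. All groups had an operation and the gavages, the labels name no genetic change, and the tissue was a whole piece of muscle with its vessels and stroma.

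Estimated depth was 14.2 to 23.8 M reads (M, 1000000) per library, with Sham 29P library S14 the shallowest. The summed level of 8 cardiomyocyte markers was 34128 to 51216 CPM over the libraries, and 7 fast skeletal muscle markers summed to between 1.5 and 10.5 CPM. In 3 libraries, Sham Veh S19 and S20 and TAC 29P S18, atrial transcripts were present: Myl7, the atrial myosin light chain, stood at 335 to 895 CPM there against at most 1.0 CPM in the other 14 libraries. Results for the 10 genes were therefore also computed without these 3 libraries, and counts over the lists of related genes were not. Mitochondrially encoded genes took 33.5% of a Sham Veh library and 26.1% of a TAC Veh library on average, and 40.01% of Sham 29P S14. Every CPM shares its library's total, and the median gene tested was 0.35 higher on the log2 scale in TAC Veh than in Sham Veh and 0.37 higher in TAC 29P than in Sham 29P.

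Upstream DNA is shown first for the genes whose windows held a site for a muscle regulator. RefSeq on GRCm38.p6 gave 13 start sites for 9 of the 10 genes, and the 250 bases before each were searched on both strands for CATTCC (the MCAT element bound by TEAD factors), the CArG box (bound by SRF), the MEF2 site, CANNTG (the E-box), AGATAA, bound by GATA factors, TNAAGTG, bound by NKX2-5, and TGANTCA, the AP-1 site. A CArG box stood before one start of Fhl1, both starts of Fhl2 and the start of Lmcd1, and it stood in 1.47% of all 32841 windows of the same length. CATTCC stood before Ankrd1, at a pair of places, and before 1 start of Flnc, against 12.6% of all windows, and a MEF2 site before Xirp2 and 1 start of Fhl2, against 2.92%. The NKX2-5 letters stood before Nrap and 1 start of Csrp3 (10.1% of all windows) and AGATAA before Ankrd1 and 1 start of Fhl2 (9.99%). These matches are letters in a window and were not tested as binding sites. All of the Ankrd1 window, 223 bases of the outer Fhl2 window and 87 bases of the outer Fhl1 window lie in exons of longer GENCODE vM21 transcripts. So do 27 bases of the Ankrd2 window. Each stretch of 30 bases below is read 5′ to 3′ on the gene's strand, with the site in capitals, and GGAATG is CATTCC on the other strand.
Xirp2, MEF2 site, chr2:67445918-67445947, plus strand: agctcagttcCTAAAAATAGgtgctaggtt
Flnc, MCAT, chr6:29433140-29433169, plus strand: cgggccgggcggCATTCCtgggaggccggc
Ankrd1, MCAT nearer the start, chr19:36119950-36119979, minus strand: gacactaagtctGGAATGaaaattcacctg
Ankrd1, MCAT farther from the start, chr19:36120037-36120066, minus strand: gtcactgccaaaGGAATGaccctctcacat
Fhl1, CArG box, chrX:56779571-56779600, plus strand: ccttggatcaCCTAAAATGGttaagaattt
Fhl2, CArG box of the outer start, chr1:43196838-43196867, minus strand: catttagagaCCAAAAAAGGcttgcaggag
Fhl2, CArG box of the inner start, chr1:43163973-43164002, minus strand: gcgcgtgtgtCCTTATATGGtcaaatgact
Lmcd1, CArG box, chr6:112273533-112273562, plus strand: tgctccttgcCCTTTAAAGGagaagggcgt

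The whole window is shown for Xirp2, the gene with the largest fold change among the abundant genes of the set. It ran over chr2:67445752-67446001 on the plus strand, and the capitals mark, in order, the AP-1 site TGACTCA, at 107 to 101 bases before the start, and the MEF2 site, at 74 to 65 bases before it. AP-1 letters stood in 6.75% of all windows. The window also held 2 E-boxes that overlap each other, which stood in 66.2% of all windows.
Xirp2: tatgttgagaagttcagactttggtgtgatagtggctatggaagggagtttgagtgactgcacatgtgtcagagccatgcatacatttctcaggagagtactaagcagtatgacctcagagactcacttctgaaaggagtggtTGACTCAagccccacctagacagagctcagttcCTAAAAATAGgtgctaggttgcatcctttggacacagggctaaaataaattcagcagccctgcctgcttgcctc

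In vehicle-treated mice, 6 of the 9 genes other than Ankrd2 were higher after TAC at an adjusted p of 0.05 over all genes, against 22.5% of all genes tested, and 0 were lower, against 1.91%. The 6 were Xirp2, Nrap, Flnc, Ankrd1, Csrp3 and Fhl1, and in each of them the lowest TAC Veh library stood above the highest Sham Veh library, which held for 27.6% of all genes. The median log2 fold change of the 9 genes was 1.05 beside 0.35 for all genes. Xirp1, Fhl2 and Lmcd1 did not pass. Ankrd2 passed the filter on low values through the TAC libraries and so is described apart from these counts; with it, 7 of 10 were past the threshold. All tests were limma's moderated test on log2 CPM over 16218 genes, with Benjamini-Hochberg adjustment.

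**Figure D1:**
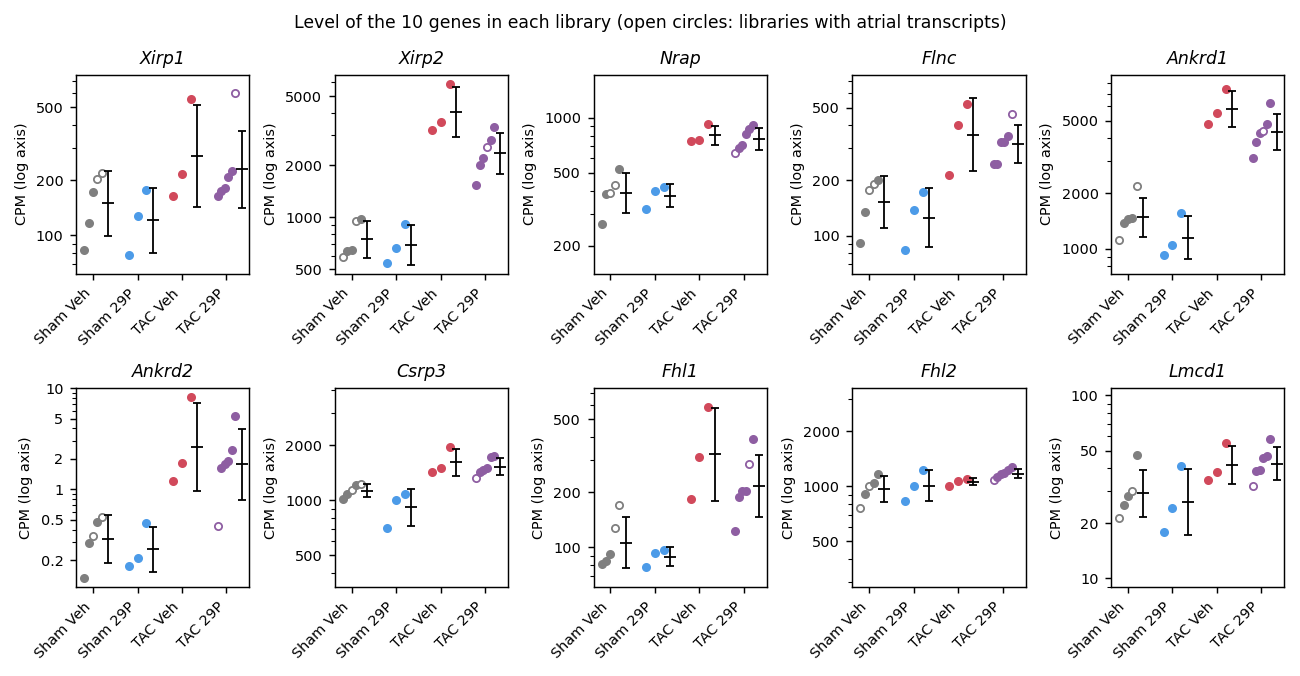
Level of each of the 10 genes in every library, in CPM on a log axis, by group; open circles are the 3 libraries with atrial transcripts, and bars give the mean ± SD of log2 CPM. The Xirp2, Nrap, Ankrd1, Flnc and Csrp3 levels of all 9 TAC libraries lie above those of all 8 Sham libraries, while those of Fhl2 overlap.

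Xirp2 and Xirp1 encode Xin repeat proteins, which bind actin filaments at the intercalated disc. Xirp2 lies on chromosome 2, plus strand, in build mm10, and its span in the file covers 3 other genes on the same strand, whose part in its CPM was not tested. Xirp2 stood at 981, 640, 649, 951 and 587 CPM in the Sham Veh libraries S5, S6, S13, S19 and S20. It stood at 5914, 3180 and 3544 CPM in the TAC Veh libraries S2, S12 and S16. No TAC Veh library came near the Sham Veh range, and S2 was the highest of the 3. The fold change was 5.45 (log2 2.45 ± 0.26 SE, limma adjusted p = 7.25e-05), and its p was the 5th smallest of all genes.

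Xirp1 followed another pattern. It stood at 172, 83.4, 117, 204 and 219 CPM in Sham Veh S5, S6, S13, S19 and S20, and at 216, 165 and 559 CPM in TAC Veh S2, S12 and S16. Only S16 lay above the Sham Veh range. Its fold change was 1.81 (log2 0.86 ± 0.44 SE, limma adjusted p = 0.149), with a 95% interval from -0.07 to 1.78. Without the 3 libraries with atrial transcripts, 2 of which are the highest Sham Veh libraries for Xirp1, its log2 fold change was 1.19 with an adjusted p of 0.0503. In the file Xirp1 lies at chr9:120013755-120023598 on the minus strand, inside the span of Cx3cr1 on the same strand, a macrophage gene that reached at most 28.4 CPM.

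Nrap (chr19:56320035-56390037, minus strand, mm10), a nebulin-related scaffold of the intercalated disc, and Flnc (chr6:29433256-29461883, plus strand), the muscle filamin that cross-links actin at the Z-disc, both rose. Nrap was 526, 263, 385, 387 and 430 CPM in Sham Veh S5, S6, S13, S19 and S20 and 925, 753 and 744 CPM in TAC Veh S2, S12 and S16. The TAC Veh libraries lay close to each other, and the fold change was 2.07 (log2 1.05 ± 0.18 SE, limma adjusted p = 0.00181). Flnc was 200, 91.5, 134, 192 and 178 CPM in Sham Veh and 401, 214 and 527 CPM in TAC Veh, in the same order of libraries. Its lowest TAC Veh library, S12, stood just above the highest Sham Veh library, and the fold change was 2.33 (log2 1.22 ± 0.31 SE, limma adjusted p = 0.0124).

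Ankrd1 (chr19:36111961-36120099, minus strand) and Ankrd2 (chr19:42036000-42045110, plus strand) encode muscle ankyrin repeat proteins, which bind the elastic part of titin and also enter the nucleus. Ankrd1 was 1447, 1381, 1466, 2185 and 1107 CPM in Sham Veh S5, S6, S13, S19 and S20 and 7479, 4793 and 5479 CPM in TAC Veh S2, S12 and S16. The gap between the groups was more than the range within Sham Veh, and the fold change was 3.93 (log2 1.97 ± 0.23 SE, limma adjusted p = 0.000212), the 9th smallest p of all genes.

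Ankrd2, best known from slow skeletal muscle, was present at trace levels. It stood at 0.294, 0.134, 0.475, 0.536 and 0.350 CPM in Sham Veh S5, S6, S13, S19 and S20, which at the estimated depth are 7, 3, 10, 12 and 7 reads. It stood at 8.18, 1.22 and 1.81 CPM in TAC Veh S2, S12 and S16, or 164, 25 and 34 reads. TAC Veh S2 was far above the other TAC libraries of its group. The fitted log2 difference was 3.02 ± 0.71 SE, the widest error of the 10 genes, and is given as a description because the gene passed the filter through its high group. Fast skeletal muscle markers summed to 1.8 to 2.3 CPM in TAC Veh and 1.9 to 10.5 CPM in Sham Veh. Without the libraries with atrial transcripts, the highest Sham Veh sum was 2.2 CPM. No list of slow skeletal muscle markers was examined, so the part of slow muscle was not tested.

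The 4 LIM domain genes did not move as a block. Fhl1 (chrX:56731787-56793346, plus strand), which binds the titin spring, was 92.2, 80.7, 84.1, 170 and 127 CPM in Sham Veh S5, S6, S13, S19 and S20 and 585, 183 and 311 CPM in TAC Veh S2, S12 and S16. The 2 highest Sham Veh values were those of S19 and S20, the libraries with atrial transcripts. The fold change was 3.03 (log2 1.60 ± 0.35 SE, limma adjusted p = 0.00676), and the log2 fold change was 1.91 without the 3 libraries with atrial transcripts.

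Csrp3 (chr7:48830398-48848033, minus strand), the muscle LIM protein of the Z-disc, was 1206, 1082, 1016, 1133 and 1229 CPM in Sham Veh and 1965, 1425 and 1494 CPM in TAC Veh, in the same order of libraries. The groups did not overlap, and the fold change was 1.43 (log2 0.51 ± 0.14 SE, limma adjusted p = 0.0194). On a scale that centres most genes (trimmed mean of M values, TMM), which takes off the shift of the median gene, the log2 fold change of Csrp3 was 0.17 with an adjusted p of 0.409.

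Fhl2 (chr1:43123074-43196984, minus strand), which also binds titin, had the smallest fold change of the 10 genes. It was 1175, 913, 1045, 766 and 1001 CPM in Sham Veh and 1011, 1100 and 1073 CPM in TAC Veh, so that the TAC Veh values lay within the Sham Veh range. Its log2 difference was 0.13 ± 0.13 SE with a 95% interval from -0.14 to 0.40 (limma adjusted p = 0.462), and on the TMM scale, which moved the median gene to 0.01, it was -0.21, so Fhl2 lay below the median gene on both scales. Lmcd1 (chr6:112273758-112330425, plus strand), a LIM protein that binds GATA6 in the nucleus, was 47.0, 25.3, 28.3, 21.3 and 29.9 CPM in Sham Veh and 54.9, 34.7 and 38.0 CPM in TAC Veh. Sham Veh S5 lay among the TAC Veh values, and the log2 difference was 0.51 ± 0.27 SE (limma adjusted p = 0.154). Without S5 it was 0.68 with an adjusted p of 0.0485.

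**Figure D2:**
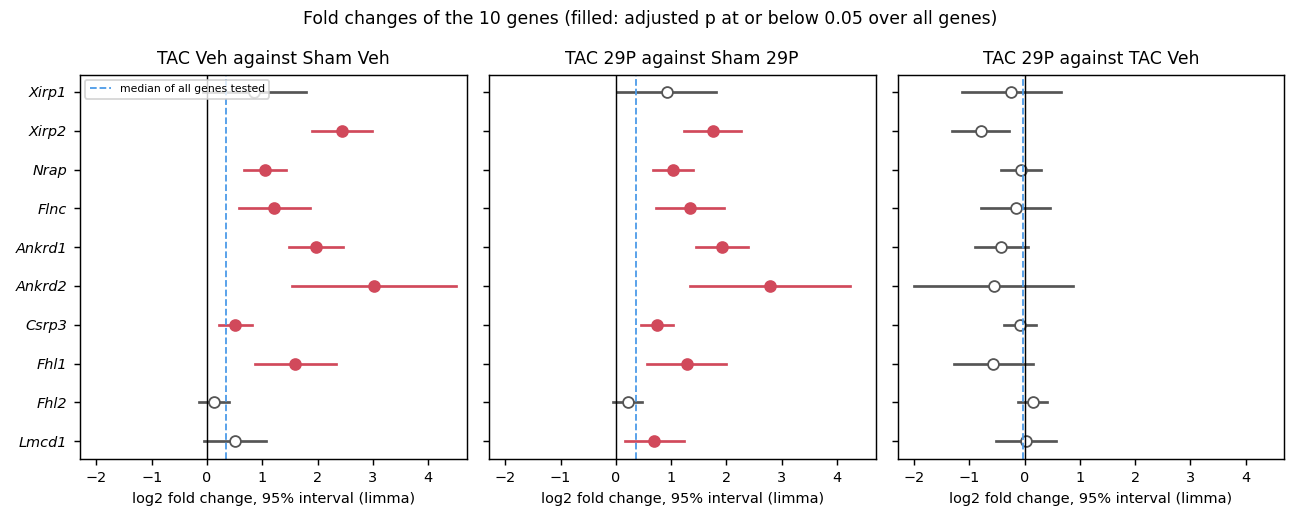
Log2 fold change of each gene with its 95% interval from limma in 3 comparisons; filled red points passed an adjusted p of 0.05 over all genes, open points did not, and the dashed line marks the median of all genes tested. The first 2 panels show 7 and 8 filled points to the right of 0, Ankrd2 among them, and the third shows none.

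The counts that follow include Ankrd2, whose call is a description only because it passed the filter through the TAC libraries. Library S2 was the highest of the 9 TAC libraries for 6 of the 10 genes, namely Xirp2, Nrap, Ankrd1, Ankrd2, Csrp3 and Fhl1. Without S2, which leaves 2 TAC Veh libraries, 3 genes were called higher in TAC Veh: Xirp2, Nrap and Ankrd1. The 4 genes that lost the call with an arm of 2 libraries kept their direction: Flnc had 1.13 (1.22 with S2), Fhl1 1.17 (1.60), Csrp3 0.37 (0.51) and Ankrd2 2.20 (3.02). The count over all genes fell from 3648 higher and 310 lower to 432 and 47 at the same time. Without TAC Veh S16, Flnc was not called (log2 0.94, limma adjusted p = 0.0641). On the TMM scale 628 genes were higher and 932 lower in TAC Veh. Xirp2, Nrap, Ankrd1 and Fhl1 were called higher there. With Ankrd2, a description, 5 of the 10 genes passed. The numbers in the sample descriptions form 4 runs, of which 3 held 1 TAC Veh library each and the run S18 to S20 none: beside S2 stood Sham Veh S5 and S6, beside S12 stood Sham Veh S13, and beside S16 no Sham Veh library. Within these runs Xirp2 was 5914 against 981 and 640 CPM, and 3180 against 649 CPM.

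In 29P-treated mice, 7 of the 9 genes other than Ankrd2 were higher after TAC, against 31.4% of all genes tested, and 0 were lower, against 1.12%. The 6 genes called in vehicle-treated mice passed here too, and Lmcd1 passed near the threshold. In 6 genes every TAC 29P library stood above every Sham 29P library, which held for 25.0% of all genes. The median log2 fold change of the 9 genes was 1.03 beside 0.37 for all genes. With Ankrd2, which no Sham 29P library held at the filter level, 8 of 10 were past the threshold. The control libraries here, Sham 29P, are not those of the vehicle comparison.

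Xirp2 was 668, 916 and 544 CPM in the Sham 29P libraries S4, S14 and S15, and its lowest, median and highest TAC 29P values were 1535, 2378 and 3336 CPM. The groups did not overlap, and the log2 fold change was 1.75 ± 0.25 SE (limma adjusted p = 0.000886). Ankrd1 was 1048, 1564 and 924 CPM in Sham 29P and 3114, 4351 and 6233 CPM at the lowest, median and highest of TAC 29P. Its log2 fold change was 1.92 ± 0.22 SE (limma adjusted p = 0.000256). For both genes TAC 29P S1 was the lowest and TAC 29P S3 the highest of the 6.

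Nrap was 421, 318 and 399 CPM in Sham 29P and 643, 764 and 918 CPM at the lowest, median and highest of TAC 29P (log2 1.03 ± 0.17 SE, limma adjusted p = 0.00186). Flnc was 173, 83.2 and 137 CPM in Sham 29P and 245, 326 and 460 CPM at the lowest, median and highest of TAC 29P (log2 1.34 ± 0.30 SE, limma adjusted p = 0.00593). Csrp3 was 1087, 705 and 998 CPM in Sham 29P and 1331, 1480 and 1743 CPM at the lowest, median and highest of TAC 29P (log2 0.74 ± 0.14 SE, limma adjusted p = 0.00302). In all 3 genes Sham 29P S14 was the lowest library of its group.

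Fhl1 was 93.2, 78.1 and 97.1 CPM in Sham 29P and 122, 202 and 389 CPM at the lowest, median and highest of TAC 29P (log2 1.29 ± 0.34 SE, limma adjusted p = 0.0131). Ankrd2 was 0.461, 0.211 and 0.176 CPM in Sham 29P, or 10, 3 and 3 reads, and 0.441, 1.84 and 5.28 CPM at the lowest, median and highest of TAC 29P. The lowest of these, S18 with 7 reads, fell within the Sham 29P range and is one of the libraries with atrial transcripts. The fitted log2 difference of Ankrd2 was 2.79 ± 0.68 SE, again a description.

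Lmcd1 was 41.2, 17.97 and 24.2 CPM in Sham 29P and 31.8, 42.4 and 57.5 CPM at the lowest, median and highest of TAC 29P (log2 0.70 ± 0.26 SE, limma adjusted p = 0.0463). The groups overlapped, since Sham 29P S4 lay among the TAC 29P values, and in 7 of the 9 fits that left out 1 library Lmcd1 was not called. Xirp1 was 177, 78.0 and 128 CPM in Sham 29P and 164, 195 and 600 CPM at the lowest, median and highest of TAC 29P (log2 0.92 ± 0.43 SE, limma adjusted p = 0.101). Fhl2 was 1224, 837 and 1007 CPM in Sham 29P and 1090, 1175 and 1275 CPM at the lowest, median and highest of TAC 29P, and its log2 difference was 0.22 ± 0.13 SE (limma adjusted p = 0.182) and -0.14 on the TMM scale. Without Sham 29P S4, its highest Sham library, the Fhl2 difference was 0.36 with an adjusted p of 0.0412.

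Sham 29P S14, the shallowest library, was also the lowest of its group for 7 of the 10 genes. Without it, 4 of the 10 genes, Ankrd2 counted, were called higher, Xirp2, Nrap, Ankrd1 and Csrp3, and the log2 fold changes of those that lost the call were 1.05 for Flnc (1.34 with S14), 1.19 for Fhl1 (1.29), 2.64 for Ankrd2 (2.79) and 0.43 for Lmcd1 (0.70), while the count over all genes went from 5097 higher to 1044. On the TMM scale Xirp2, Nrap, Flnc and Ankrd1 were called, with 926 genes higher and 810 lower over all genes. With Ankrd2, a description, 5 of the 10 genes passed. Nothing in the labels says what the 4 runs of numbers stand for. All but 1 of the TAC 29P animals were in run S1 to S11, with 1 Sham 29P animal. With the run as a covariate 5 genes were called, Xirp2, Nrap, Flnc, Ankrd1 and Csrp3, of 679 called higher over all genes. Within run S1 to S11, Xirp2 was 668 CPM in Sham 29P S4 and 1535 to 3336 CPM in the 5 TAC 29P libraries.

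Drug and vehicle were then compared within TAC. At an adjusted p of 0.05 no gene of the table was called between TAC 29P and TAC Veh (0% of all genes), the 10 genes included. At the unadjusted p of 0.05 that the study used, 1 of the 10 was lower, Xirp2, against 0.931% of all genes, and none was higher. Xirp2 is a gene the study itself singled out in these samples, so its direction here is not independent evidence.

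The Xirp2 level was 5914, 3180 and 3544 CPM in TAC Veh S2, S12 and S16, and in TAC 29P S1, S3, S8, S9, S11 and S18 it ranged from 1535 to 3336 CPM with a median of 2378 CPM. TAC 29P S3 stood above TAC Veh S12, so the groups overlapped. The log2 difference was -0.80 ± 0.25 SE with a 95% interval from -1.32 to -0.28 (limma unadjusted p = 0.00489, adjusted p = 1), or 0.575 times the vehicle level. It was the 23rd smallest p of all genes. Without TAC Veh S2 the log2 difference was -0.52 with an unadjusted p of 0.0618, and in the other 8 fits that left out 1 library of these groups it kept an unadjusted p below 0.05. It was -0.82 without the libraries with atrial transcripts and -0.77 on the TMM scale. Within run S1 to S11, the sole TAC Veh library is S2.

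For the other 9 genes the log2 difference between TAC 29P and TAC Veh ran from -0.57 (Fhl1) to 0.15 (Fhl2). Ankrd1 differed by -0.42 with a 95% interval from -0.89 to 0.05, and Fhl1 by -0.57 with an interval from -1.28 to 0.15. Without TAC Veh S2 these were -0.24 and -0.14, and without TAC Veh S12 they were -0.56 and -0.98, the ends of their range over the 9 fits that left out 1 library. The 95% intervals reached from -0.43 to 0.29 for Nrap, from -0.37 to 0.21 for Csrp3 and from -0.12 to 0.41 for Fhl2, and that of Ankrd2 was the widest. The 4 red blood cell genes measured were lower in TAC 29P at the unadjusted p as well, by a median of 1.08 on the log2 scale (median difference -1.08), and their summed level was 3052 to 4933 CPM in TAC Veh and 1027 to 4118 CPM in TAC 29P. The part of blood content in the Xirp2 difference was not tested.

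In Sham mice, 29P made no call among the 10 genes at an adjusted p of 0.05, where 0.00617% of all genes were called. At the unadjusted p, Csrp3 was lower (log2 -0.31 ± 0.14 SE, limma unadjusted p = 0.0466, adjusted p = 0.666), against 5.89% of all genes lower. Csrp3 was 1087, 705 and 998 CPM in Sham 29P S4, S14 and S15 against 1016 to 1229 CPM in Sham Veh, and S14 and S15 lay below the Sham Veh range. Without S14 the log2 difference was -0.12 (limma unadjusted p = 0.399), and 4 of the 8 fits that left out 1 library kept an unadjusted p below 0.05. The difference between the TAC effect under 29P and under vehicle was not called for any of the 10 genes, with 0.00617% of all genes called at the adjusted p and 0.863% lower at the unadjusted p. For Xirp2 that difference was -0.70 ± 0.36 SE on the log2 scale (limma unadjusted p = 0.0671, adjusted p = 0.998). A TAC effect past the threshold in one treatment and not in the other, as for Lmcd1, was therefore not shown to differ between treatments.

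**Figure D3:**
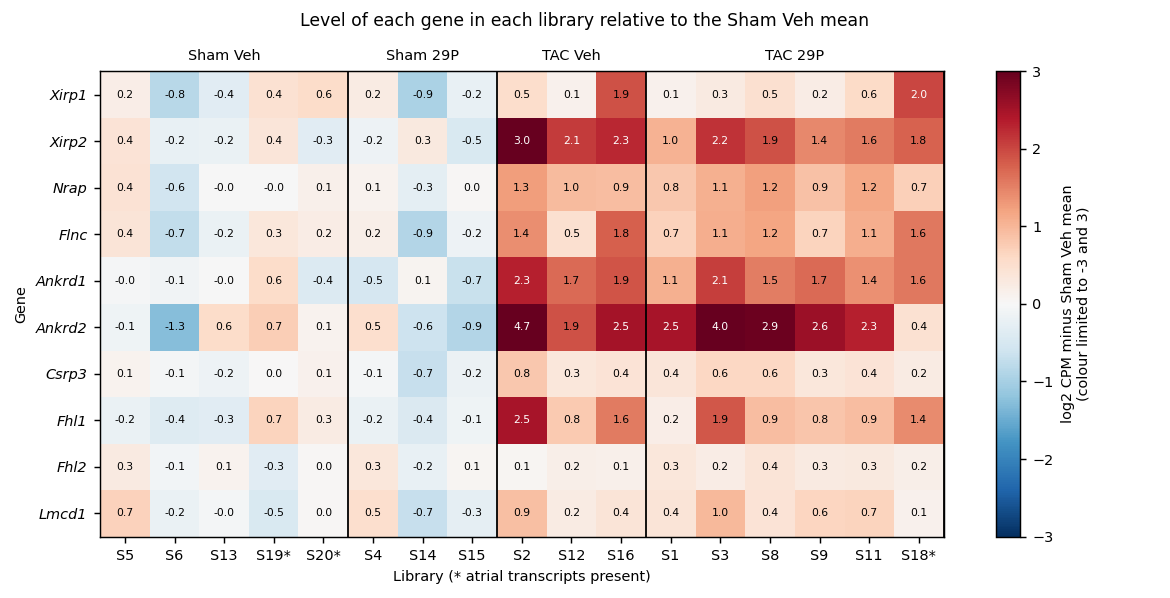
Log2 CPM of each gene in each library minus the mean of the Sham Veh libraries; rows are genes, columns are libraries by group, and the number in each cell is the difference. TAC Veh S2 and TAC 29P S3 are dark for Xirp2, Ankrd1, Ankrd2 and Fhl1, while Xirp1 is dark in TAC Veh S16 and TAC 29P S18 alone.

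The 10 genes did not all peak in the same heart. Over the 9 TAC libraries, S2 was the highest for 6 genes, among them Xirp2 at 5914 CPM and both ankyrin repeat genes, and the highest was S18 for Xirp1 at 600 CPM, S16 for Flnc at 527 CPM, S3 for Lmcd1 at 57.5 CPM and S8 for Fhl2 at 1275 CPM. TAC 29P S1 was the lowest of the 9 for 4 of the 10 genes and TAC 29P S18 for 4 others. Xirp1 was high in S16 (559 CPM) and S18 (600 CPM), while the other 7 TAC libraries held 164 to 224 CPM. Ccn2, the connective tissue growth factor gene, was highest of the 17 libraries in the same 2, at 750 CPM in S16 and 724 CPM in S18. S18 also carried atrial transcripts and S16 did not.

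**Figure D4:**
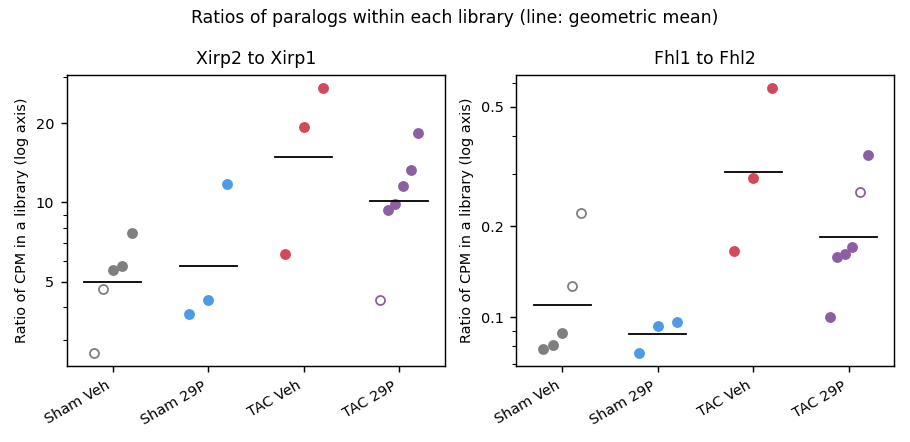
Ratio of Xirp2 to Xirp1 and of Fhl1 to Fhl2 in each library, on log axes, by group; lines are geometric means and open circles the libraries with atrial transcripts. The Xirp2 to Xirp1 ratio reaches 27.4 in TAC Veh S2, and the Fhl1 to Fhl2 ratio of 2 Sham Veh libraries with atrial transcripts lies above the other Sham libraries.

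The ratio of one paralog to another within a library does not depend on the library's total, so both pairs were compared that way, a choice made after their levels had been seen. Per library, the ratio of Xirp2 to Xirp1 CPM was 5.72, 7.67, 5.54, 4.67 and 2.68 in Sham Veh S5, S6, S13, S19 and S20 and 27.4, 19.3 and 6.34 in TAC Veh S2, S12 and S16. TAC Veh S16 fell within the Sham Veh range. The geometric means were 14.96 and 4.97, with p = 0.0714 by an exact two-sided permutation test (adjusted p = 0.143 over the 6 ratio comparisons).

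The ratio of Fhl1 to Fhl2 was 0.0785, 0.0884, 0.0805, 0.221 and 0.127 in Sham Veh and 0.578, 0.166 and 0.290 in TAC Veh, in the same order of libraries (exact permutation p = 0.0714, adjusted p = 0.143). Without S19 and S20 the 3 Sham Veh ratios were 0.0785 to 0.0884 and all 3 TAC Veh ratios were above them, which for 3 against 3 libraries gives the smallest p an exact permutation test allows (p = 0.10). Under 29P the Fhl1 to Fhl2 ratio was 0.0761 to 0.0964 in Sham and 0.1002 to 0.346 in TAC, without overlap (exact permutation p = 0.0238, adjusted p = 0.143). The Xirp2 to Xirp1 ratio under 29P was 3.77 to 11.7 in Sham and 4.26 to 18.4 in TAC, and these overlapped (exact permutation p = 0.238, adjusted p = 0.286). None of the 6 ratio comparisons passed adjustment.

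To rank the genes by level, CPM was divided by the exon length of each gene. In Sham Veh, Ankrd1 (526 ± 139 CPM per kb of exon, SD, n = 5), Fhl2 (517 ± 80.4) and Csrp3 (424 ± 32.8) led and overlapped as neighbours. Nrap (72.3 ± 17.2) and Xirp2 (63.6 ± 15.7) followed, and Fhl1, Xirp1, Lmcd1 and Flnc stood between 29.8 and 16.9 CPM per kb, each overlapping its neighbour. Ankrd2 was the lowest at 0.315 CPM per kb. In TAC Veh, Ankrd1 stood alone at 2050 ± 484 CPM per kb (SD, n = 3), Csrp3 (610 ± 110) and Fhl2 (560 ± 24.1) overlapped, and Xirp2 (352 ± 124) stood above Nrap (147 ± 18.6) with no overlap.

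The length of Xirp2 is uncertain. The file has the gene from chr2:67173834 on, while the annotation used here for lengths starts it at chr2:67446002, and the file's span covers 3 other genes on the same strand. None of these 3 has values of its own, and whether their reads were counted in the Xirp2 CPM was not tested. By CPM not divided by length, the 10 genes together took 0.456% to 0.601% of a Sham Veh library and 1.19% to 1.86% of a TAC Veh library. Ankrd1 and Xirp2 together made up on average 43.1% and 68.3% of these shares, which favour long genes such as Xirp2. In bulk tissue, fewer cells of a type and less RNA per cell cannot be told apart.

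Genes of the same structures and of their control were counted from 4 lists, each count to be read against the 22.5% of all genes higher after TAC under vehicle and the 31.4% under 29P. Of 21 genes for titin and its Z-disc partners, 9 (42.9%) were higher in TAC Veh than in Sham Veh at the adjusted p, 0 were lower and 12 did not pass, with a median log2 fold change of 0.31 that lay below the 0.35 of all genes. Synpo2l, an actin-binding Z-disc protein (log2 1.76), Ankrd23, the remaining muscle ankyrin repeat gene (log2 1.34), and Des, the intermediate filament desmin (log2 1.05), had the largest changes. Titin itself (Ttn) differed by 0.10 and its cap Tcap by -0.12, neither past the threshold. In 29P-treated mice 8 of the 21 were higher (38.1%) and 0 lower.

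Of 15 intercalated disc genes, 7 (46.7%) were higher in TAC Veh, 1 (6.67%, against 1.91% of all genes) was lower and 7 did not pass. The actin regulators Enah (log2 1.06), Zyx (log2 0.83) and Vasp (log2 0.74) had the largest changes, and the desmosomal cadherin Dsg2 was lower (log2 -0.50). Cdh2, the adherens junction cadherin, differed by 0.06. In 29P-treated mice 5 were higher (33.3%) and 1, again Dsg2, was lower. Of 13 regulators, 5 (38.5%) were higher and 0 lower in TAC Veh. Among them were the SRF coactivator Mrtfa (log2 1.18), Tead1 (log2 0.63), which binds CATTCC, and Wwtr1 (log2 0.63), its coactivator TAZ. Under 29P the share was again 38.5%, but not of the same genes. Tead1 (log2 0.35, limma adjusted p = 0.0933) and Yap1 (log2 0.27, limma adjusted p = 0.0671) were not called there. Srf (log2 0.90) and Gata4 (log2 0.65) were called under 29P and not under vehicle.

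Of 9 markers of ventricular load, 7 (77.8%) were higher and 0 lower in TAC Veh, led by the fetal isoforms Myh7 (log2 4.08) and Acta1 (log2 3.72) and the stress cytokine Gdf15 (log2 3.08). All 9 were higher in 29P-treated TAC mice. The Ankrd1 change of 1.97 and the Xirp2 change of 2.45 were thus smaller on the log2 scale than those of these 3 markers. The median log2 fold change of the 9 load markers was 2.06, above that of Ankrd1 and below that of Xirp2. The 2 load markers not called under vehicle were Nppa (log2 2.07 ± 0.85 SE, limma adjusted p = 0.0794) and Tnfrsf12a (log2 1.02, limma adjusted p = 0.059). Nppa stood at 3085 to 3670 CPM in the 3 libraries with atrial transcripts, 2 of them Sham Veh, against a median of 970 CPM in the other 14. Ccn2 stood at 253 to 724 CPM in those 3, against a median of 140 CPM. Between TAC 29P and TAC Veh no gene of the 4 lists passed the adjusted p, and at the unadjusted p 1 did, Gdf15, lower by a log2 difference of -1.23.

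**Figure D5:**
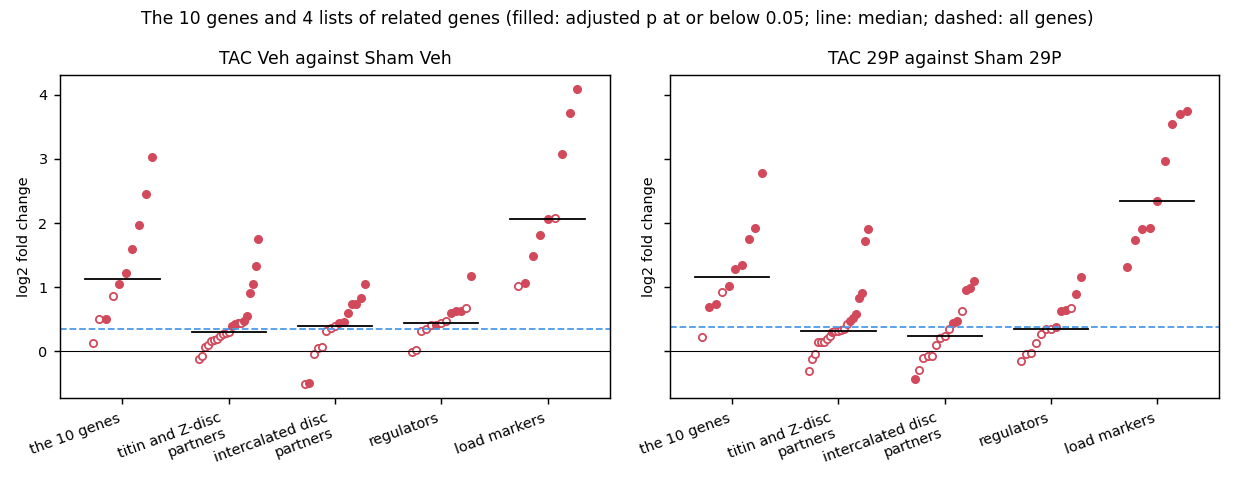
Log2 fold change of the 10 genes and of 4 lists of related genes after TAC, in vehicle- and 29P-treated mice; points are genes, filled where the adjusted p was at or below 0.05, black lines are medians and the dashed line is the median of all genes tested. The medians of the Z-disc, intercalated disc and regulator lists lie near the dashed line, and those of the 10 genes and the load markers above it.

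Markers of other cells moved with TAC too. All 5 macrophage markers and all 4 red blood cell genes were higher in TAC Veh than in Sham Veh, against 22.5% of all genes. So were 4 of 6 fibroblast and 2 of 5 endothelial markers. Of 5 smooth muscle markers 1 (20%) was higher, Des, which is also on the list of Z-disc partners. Myh11, Acta2, Tagln and Cnn1 differed by -0.14 to 0.38 and were not called. The median log2 fold change of the endothelial markers was 0.41 beside 0.35 for all genes. Summed levels were 172 to 271 against 89.2 to 128 CPM for macrophages and 1686 to 2497 against 816 to 1247 CPM for fibroblasts. The red blood cell genes summed to 3052 to 4933 against 1009 to 2438 CPM. Under 29P, 31.4% of all genes were higher after TAC. The counts there were 5 of 5 macrophage, 6 of 6 fibroblast, 4 of 5 endothelial, 1 of 5 smooth muscle (again Des) and 0 of 4 red blood cell markers. Of 8 cardiomyocyte markers, 0 were higher and 1 (12.5%, against 1.91% of all genes) was lower in TAC Veh than in Sham Veh. Their median log2 fold change was -0.26 beside 0.35 for all genes. Under 29P, 1 was higher and 1 (12.5%, against 1.12%) lower, with a median of -0.10 beside 0.37. The part of cell composition in the changes of the 10 genes was not tested.

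To find genes that varied with the set between hearts of the same group, each gene's deviation from its group means was set against the mean standardised deviation of the 10 genes over 17 libraries. Synpo2l had the highest Pearson r of all other genes (0.957), followed by Lgmn (0.929), Popdc3 (0.919), Ckap4 (0.916) and Uck2 (0.903). Without the libraries with atrial transcripts the 5 values were 0.963, 0.957, 0.952, 0.920 and 0.910 over 14 libraries. All these points share library totals and depth, and the 5 were picked for their r, so the values are a description. Not all members followed the mean of the other members closely. Their r was 0.12 for Fhl2, 0.22 for Ankrd1 and 0.25 for Xirp1, and at most 0.72, for Nrap. Over the 14 libraries without atrial transcripts r was 0.36 for Fhl2, 0.27 for Ankrd1 and 0.46 for Xirp1, and at most 0.83, for Lmcd1.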

How the data were processed

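Bulk RNA-seq was available for 17 mice as 1 table with 21798 genes. Per the labels and the file, the deposited values are CPM with a constant of 0.0001 added; the authors ran STAR 2.3.7 within Partek Flow on genome build mm10, and the strand setting and the counter are not given in the sources used here. The study excluded 3 further libraries, not analysed here. Of values under 1.5 CPM, 79.0% to 81.7% were whole multiples of 1 read (within 0.03 reads) at an estimated 14.2 to 23.8 M reads, which was not enough to run a count model. The constant was kept, genes with at least 0.5 CPM in at least 3 libraries (16218) were tested on log2 CPM with limma 3.58.1 (trend, R 4.3.3; 1 mean per group, 13 residual degrees of freedom), and p-values were adjusted over all of them. The method was run on simulated data with independent genes and no shift between libraries. That check does not cover the shift of the median gene or the weight of single libraries seen here. Ratios were compared with exact permutation tests (scipy). Exon lengths came from GENCODE vM21. Animals are taken as separate, as the labels number them. The members and lists were chosen with earlier results of these data known. All 10 genes are named. From each list, up to 3 genes in each direction with the largest log2 fold change among those called in TAC Veh against Sham Veh are named. The 5 genes most like the set and cell type markers are named too. Ttn, Tcap, Cdh2, Ccn2, Nppa, Tnfrsf12a, Yap1, Srf, Gata4 and the unadjusted call of Gdf15 were added after their values were seen. Alternatives were other scalings, filters, added constants, a run covariate, the unadjusted threshold and leaving out each library.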

Additional observations from a re-analysis of the deposited data

Results flagged for a closer look

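In the groups of 5 and 6 libraries, Xirp1 in TAC 29P held the sole value past the limit for a sample far from its group; the groups of 3 libraries were not screened. Library S18 held 600 CPM, the other 5 TAC 29P libraries held 164 to 224 CPM, and on the log2 scale the gap to the nearest library was 0.761 of the whole range, above Dixon's 95% critical value of 0.625 for 6 samples. The 20 gene and group pairs with 4 or more libraries were screened, and chance flags about 1 in 20. S18 is one of the 3 libraries with atrial transcripts, whose part in the Xirp1 value was not tested; Sham Veh S19 and S20, the other two, held 204 and 219 CPM, the highest of the 5 Sham Veh libraries.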

How the results depend on the processing

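No paired analysis was possible because no replicate number is shared between groups. The counts here include Ankrd2, whose call is a description only because it passed the filter through the TAC libraries. In vehicle-treated mice 5 to 8 of the 10 genes were called higher after TAC under the other scalings, filters, added constants and covariate, and 3 to 8 when 1 library was left out, the lowest without TAC Veh S2. In 29P-treated mice 8 genes were called, 5 with TMM or median-of-ratios factors and 5 with the run covariate, and 4 to 9 when 1 library was left out, the lowest without Sham 29P S14. At the unadjusted threshold 1 gene each was lower with 29P in TAC and in Sham mice, against 0 adjusted. Scalings that take off all or part of the shift of the median gene moved Fhl2, which lay below that gene, to -0.21 (TMM), -0.20 (median of ratios) and -0.026 (totals without mitochondrial genes) under vehicle and to -0.14 with either set of factors under 29P. Between TAC 29P and TAC Veh, Lmcd1 turned to -0.28 with the run covariate. In that comparison the values with 1 library left out ran from -0.60 to 0.28 for Xirp1, -0.12 to 0.034 for Nrap, -0.53 to 0.12 for Flnc, -1.11 to 0.26 for Ankrd2, -0.17 to 0.064 for Csrp3, -0.10 to 0.23 for Lmcd1, -0.56 to -0.24 for Ankrd1 and -0.98 to -0.14 for Fhl1. No cause of these changes was tested.

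With the run covariate, which fits the groups within runs, Xirp1 was called higher in TAC Veh (log2 1.13, limma adjusted p = 0.033), and the Xirp2 difference between TAC effects was -1.16 (unadjusted p = 0.0262). Leaving out the 3 libraries with atrial transcripts, an alternative chosen after seeing the data, kept 7 and 8 calls after TAC. Groups of 3 libraries limit what can be seen, and an arm with 2 libraries left is assumed to vary like the others.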
